A study of Mus musculus with 4 samples.

Results

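The expression of 9 genes was followed in recruited renin cells of the mouse kidney, all of them coding for proteins that move potassium or chloride across the membrane of vascular cells. They were chosen by symbol from the 32647 gene symbols of the expression table: Kcnj8, Kcnj11, Abcc8, Abcc9, Kcnma1, Kcnmb1, Kcnk3, Ano1 and Slc12a2, and all 9 were found. The mice were adult C57BL/6 animals carrying the Ren1c-YFP reporter, a yellow fluorescent protein under the renin promoter, and they had received a low-salt diet with captopril, an inhibitor of the angiotensin-converting enzyme, at 0.5 g/L in the drinking water for 1 week. YFP-positive cells were sorted from the kidney cortex, cDNA from a small pool of them was amplified, and 4 RNA-seq libraries were made, 2 technical replicates of each of 2 biological samples. The sources used here do not say whether a biological sample came from 1 mouse or a pool, and the reporter marks cells in which the renin promoter was active, so the sort follows the promoter and not a vascular cell type as such. All libraries shared this genotype and treatment, so no untreated group was compared and no test between conditions exists.

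Renin cells are modified smooth muscle cells of the afferent arteriole, and calcium acts in them as a brake on renin release. Potassium channels keep the membrane hyperpolarised and limit calcium entry. ATP-sensitive potassium (KATP) channels, built of a pore subunit (Kcnj8 or Kcnj11) and a sulfonylurea receptor (Abcc8 or Abcc9), open as ATP falls and ADP rises. The large-conductance calcium-activated (BK) channel (Kcnma1 with the accessory subunit Kcnmb1) opens on depolarisation and calcium, and the acid-sensitive background channel TASK-1 (Kcnk3) sets the resting potential. The calcium-activated chloride channel Ano1 lets chloride leave smooth muscle cells, which depolarises them, and the cotransporter NKCC1 (Slc12a2) brings in the chloride that makes this possible.

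Levels are given in TPM, a share of all transcripts that is corrected for transcript length and allows different genes of a library to be set side by side. Technical replicates were averaged first, and the level of a gene is the mean of both biological samples with the SD between them (n = 2). Library totals lay between 19871382 and 47471036 estimated counts, and 6405 to 8709 genes reached 1 TPM in a library. Mitochondrial transcripts took 9.26 to 10.4% of the TPM in sample 1 and 14.9 to 25.9% in sample 2. The labelled cell type was checked against its markers. Ren1, the renin gene, lay between 15933 and 29637 TPM in every library, and 4 of 5 renin cell markers reached 1 TPM in every library. Of 9 smooth muscle markers, 8 did so too.

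Of the channel genes, Slc12a2 was highest and Kcnma1 lowest. In descending order the mean levels were 17.3 ± 9.14 TPM for Slc12a2, 7.87 ± 4.03 for Ano1, 7.48 ± 10.4 for Abcc8, 7.18 ± 6.99 for Kcnk3, 4.63 ± 3.02 for Kcnmb1, 3.15 ± 4.15 for Abcc9, 1.86 ± 0.618 for Kcnj11, 1.35 ± 1.22 for Kcnj8 and 0.814 ± 1.02 for Kcnma1 (SD, n = 2). From Ano1 downwards no gene differed from the next in this order by more than the larger of their SDs. Slc12a2 lay above Ano1 by slightly more than its SD, but in sample 2 both had nearly the same level, at 10.8 and 10.7 TPM. Among the 19229 genes above 0 TPM in any library, 84.1% had a lower mean than Slc12a2 and 44.4% a lower mean than Kcnma1. All 9 genes reached 1 TPM in at least 1 library, as did 37.7% of all symbols. Every 1 of the 7637 genes with a mean in the range of these 9 genes did so too. Only Slc12a2 and Kcnmb1 reached 1 TPM in every library, 2 of 9, against 9.74% of all symbols and 14.5% of those 7637 genes.

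**Figure D1:**
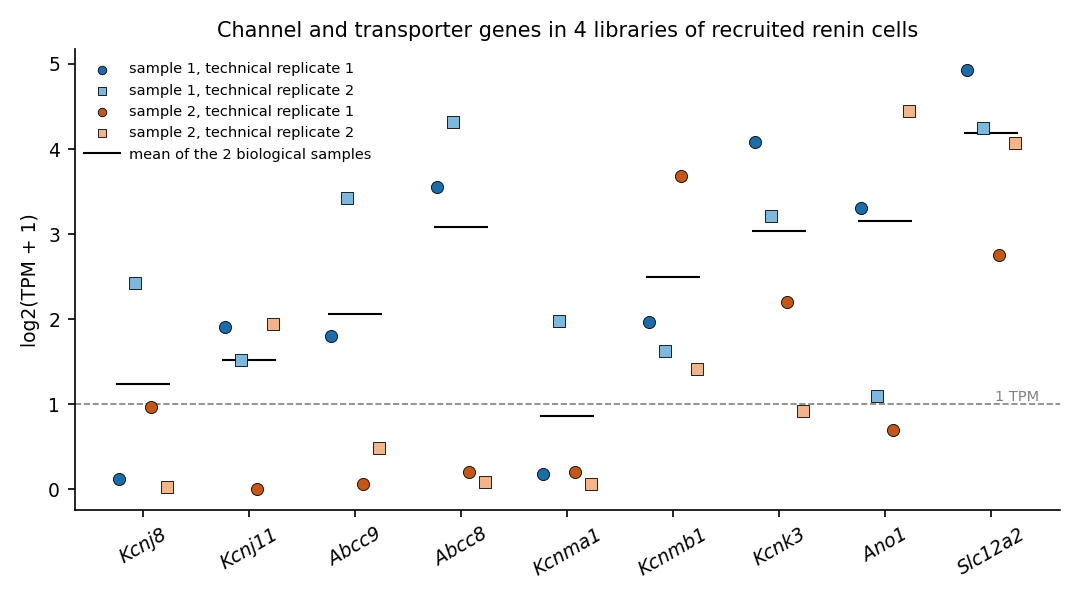
Level of each gene in each library, as log2(TPM + 1) on the vertical axis. Points are single libraries, coloured by biological sample, black dashes are the means of both samples, and the dashed line marks 1 TPM. Slc12a2 and Kcnmb1 are the genes with every point above the line, and the points of most genes are spread widely between technical replicates.

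Technical replicates of a sample often lay far apart. In sample 1, Kcnj8 and Ano1 differed at least 4-fold on the TPM + 1 scale between technical replicates, and in sample 2, Ano1 and Kcnmb1 did, 2 of 9 genes each time. Among the genes of the same level range the shares were 35.8% in sample 1 and 38.4% in sample 2.

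The KATP channel of vascular smooth muscle is formed by Kcnj8, the pore subunit Kir6.1, and Abcc9, the sulfonylurea receptor SUR2. Kcnj11 and Abcc8 code for Kir6.2 and SUR1, the pair known from pancreatic beta cells. Each pore gene is a neighbour of its receptor gene. In GRCm38, Kcnj8 (chr6:142564837-142571614, minus strand) lies 16247 bases from Abcc9 (chr6:142587862-142702315, minus strand). Kcnj11 (chr7:46093953-46100764, minus strand) lies 3758 bases from Abcc8 (chr7:46104523-46180033, minus strand). The sequences upstream of the vascular pair are shown because these neighbouring genes code for the parts of 1 channel. They are printed 5′ to 3′ on the coding strand, from RefSeq on GRCm38.p6, and hold only bases outside the annotated genes. Capitals mark the letters of a cyclic AMP response element core, TGACG, here read on the opposite strand.
Kcnj8, chr6:142571615-142571864: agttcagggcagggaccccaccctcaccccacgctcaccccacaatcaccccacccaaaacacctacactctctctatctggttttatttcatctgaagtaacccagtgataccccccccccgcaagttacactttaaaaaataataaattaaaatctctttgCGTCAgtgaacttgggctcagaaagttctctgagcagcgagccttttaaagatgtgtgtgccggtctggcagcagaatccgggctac
Abcc9, chr6:142702316-142702524: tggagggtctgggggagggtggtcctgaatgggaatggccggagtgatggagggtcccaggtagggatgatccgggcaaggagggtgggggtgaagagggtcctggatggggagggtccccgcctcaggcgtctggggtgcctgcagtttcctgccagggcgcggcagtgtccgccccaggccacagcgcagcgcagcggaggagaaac
Within 250 bases upstream of the RefSeq start, TGACG on either strand was found once for Kcnj8, beginning 87 bases upstream, and not for Abcc9. Of 32851 promoter windows of this length, 17.8% held it. CANNTG, the E-box, was present once for each gene, 160 bases upstream for Kcnj8 and 27 bases upstream for Abcc9, the latter outside the bases printed, and 66.2% of all windows held it. TATAAA (12.4% of windows), the CArG box (1.47%) and the MEF2 site (2.92%) were not found for either gene. The 250-base GC content was 49.2% for Kcnj8 and 66.8% for Abcc9, against a median of 52.4%. These are matches of letters in short windows, and no binding was measured.

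Kcnj8 was measured at 0.0827 and 4.35 TPM in sample 1 and at 0.959 and 0.0167 TPM in sample 2. It was well above 1 TPM in 1 library only, which held 80.4% of its summed level. Abcc9 was measured at 2.48 and 9.69 TPM in sample 1 and at 0.0462 and 0.399 TPM in sample 2. Both libraries of sample 1 lay above both of sample 2. Its receptor transcript was higher than the Kcnj8 pore transcript in 3 of 4 libraries, with a ratio of the means of 2.33, made of 2.75 in sample 1 and 0.456 in sample 2.

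Kcnj11 was measured at 2.74 and 1.86 TPM in sample 1 and at 0 and 2.85 TPM in sample 2. The level was similar in 3 libraries and the other held no assigned read, a count that allows up to 0.0258 TPM at 3 reads, for counting error only. The ratio of the means of Kcnj8 and Kcnj11 was 0.726, but Kcnj8 was the higher of them in 2 of 4 libraries, and leaving out 1 library moved the ratio between 0.137 and 1.47. The pore genes could therefore not be put in an order. Abcc8 was measured at 10.7 and 19.0 TPM in sample 1 and at 0.152 and 0.0631 TPM in sample 2. As deposited, Abcc8 exceeded Abcc9 in 3 of 4 libraries, and the ratio of Abcc9 to Abcc8 was 0.422. The direction differed between the samples, with a ratio of 0.410 in sample 1 and 2.07 in sample 2, where neither gene exceeded 0.399 TPM in a library.

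The order of the receptors also changed with the lengths used. The deposited table gives, beside TPM, an effective length per gene and library, an average over the transcripts to which reads were assigned. For Abcc8 it was 281 and 548 nt in sample 1 and 1028 and 403 nt in sample 2, which is 5.77 to 21.1% of its longest annotated transcript (4877 nt). Of the 8 annotated Abcc8 transcripts, 4 are shorter than 700 nt. Abcc9, in contrast, stood at 71.1 to 99.4% of its longest transcript (7499 nt). Assigned reads, recovered from TPM and length, numbered 98, 559, 10 and 2 for Abcc8 and 566, 3881, 15.8 and 174 for Abcc9, in the library order used above. Abcc9 thus had more reads than Abcc8 in every library, 4637 against 669 in all. When each gene was given 1 length throughout, that of its longest annotated transcript, Abcc8 fell to 0.697 TPM and Abcc9 stood at 3.07 TPM, a ratio of 4.40, with 4.35 in sample 1 and 8.79 in sample 2. Whether Abcc8 reads came from short transcripts or from parts shared with the full-length transcript was not tested, and reads in amplified cDNA without molecular identifiers are not molecules.

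**Figure D2:**
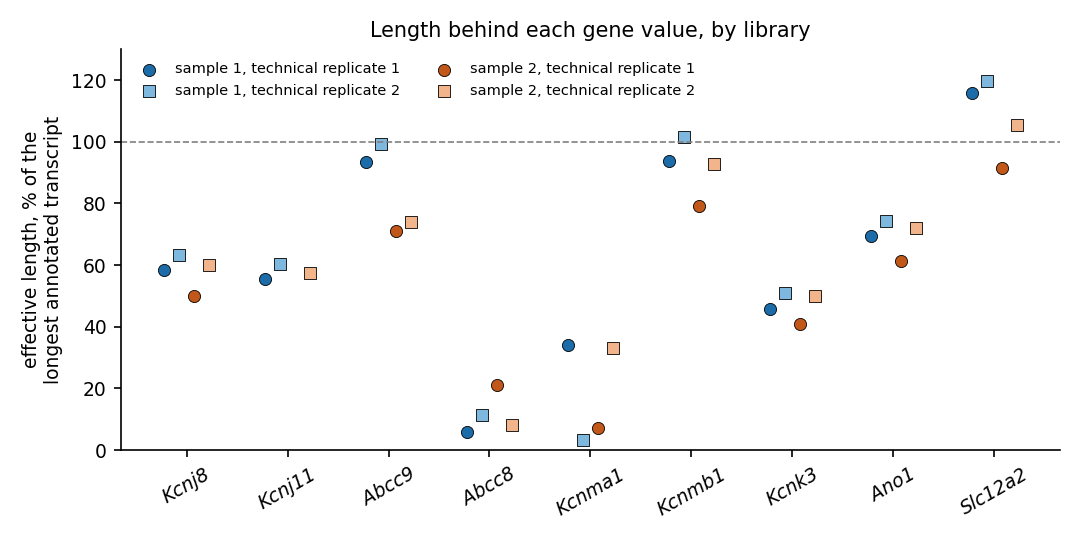
Effective length of each gene in each library, as a percentage of its longest annotated transcript (vertical axis). Abcc8 lay at 5.77 to 21.1% and Kcnma1 at 3.25 to 33.9%, whereas the other genes lay between 41.0 and 119.7%. Kcnj11 has no point where it had no read.

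**Figure D3:**
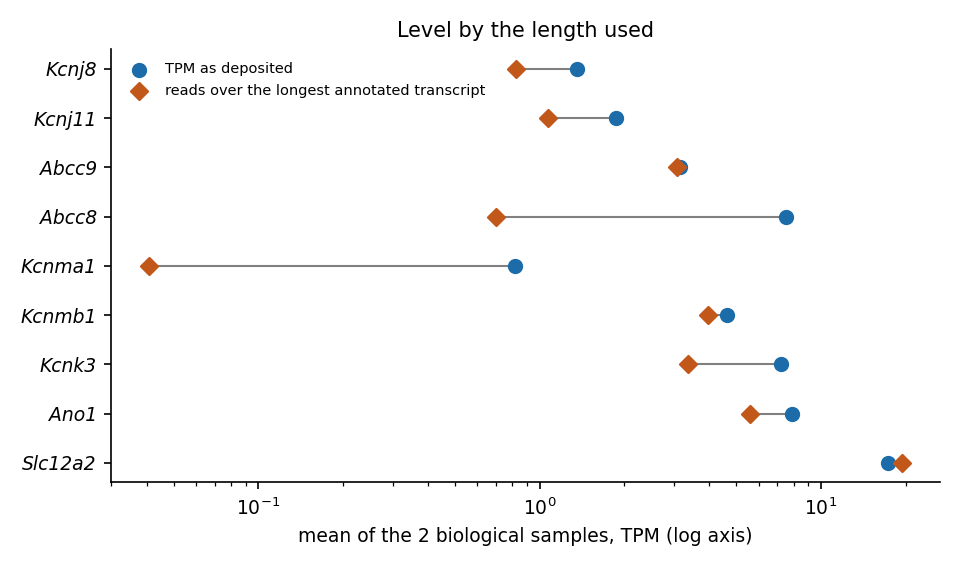
Mean level of both biological samples by the length used, in TPM on a log axis. Circles are TPM as deposited and diamonds are the same reads over the longest annotated transcript, on the scale of the deposited library. Abcc8 moved from 7.48 to 0.697 TPM and Kcnma1 from 0.814 to 0.0408 TPM, and Abcc9 then lay above Abcc8.

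Kcnma1, the pore of the BK channel (chr14:23289431-24014491, minus strand), was measured at 0.128 and 2.94 TPM in sample 1 and at 0.146 and 0.0424 TPM in sample 2. Only 1 library exceeded 1 TPM, and it held 90.3% of the summed level. That value stood on 62 reads and an effective length of 393 nt, against 12094 nt for the longest of 38 annotated transcripts. With 1 length per gene, no library exceeded 0.0954 TPM and the mean was 0.0408 TPM. Kcnmb1, the accessory subunit of BK that raises its calcium sensitivity in smooth muscle (chr11:33963013-33973641, plus strand), was measured at 2.92 and 2.07 TPM in sample 1 and at 11.9 and 1.66 TPM in sample 2. All libraries exceeded 1 TPM, and a single library of sample 2 stood above the rest. Kcnmb1 has 1 annotated transcript and its mean changed little with the length used, from 4.63 to 3.95 TPM. The accessory subunit therefore stood 5.69-fold above the pore as deposited, 1.63-fold in sample 1 and 72.0-fold in sample 2, and in all libraries but 1. Over all libraries it had 3883 reads against 100 for Kcnma1.

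Kcnk3, the pore of TASK-1 (chr5:30588170-30625271, plus strand), was measured at 16.0 and 8.30 TPM in sample 1 and at 3.59 and 0.885 TPM in sample 2. The samples did not overlap. The authors' own mean for this gene, 4.26 TPM, was 0.593 of the mean of both samples. Their mean column was the average of 3 libraries and left out technical replicate 1 of sample 1, the library in which Kcnk3 was highest.

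Ano1 (chr7:144588549-144751974, minus strand) was measured at 8.89 and 1.14 TPM in sample 1 and at 0.622 and 20.8 TPM in sample 2. Each sample had a high and a low library, and the libraries of sample 2 were the lowest and the highest of all, so the samples overlapped. Their means were 5.02 and 10.7 TPM. Slc12a2 (chr18:57878678-57946821, plus strand) was measured at 29.4 and 18.0 TPM in sample 1 and at 5.76 and 15.8 TPM in sample 2. It was the best supported gene of the set, with 2201 to 8551 reads in a library. Both libraries of sample 1 lay above both of sample 2, and the lowest of sample 1 and the highest of sample 2 were close to each other.

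Some of these values could include reads of other genes. Library preparation did not keep the strand, and exons of Abcc9, Kcnma1 and Kcnk3 overlap exons on the opposite strand (5330439B14Rik, 4930519K11Rik and Gm9899). How reads were divided there was not tested.

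The mean was lower in sample 2 for 7 of 9 genes, all but Ano1 and Kcnmb1, against 57.6% of the genes in the same level range. A difference was called when the libraries of both samples did not overlap and their means, on TPM + 1, stood apart by 4-fold or more. By this rule Abcc8 (14.3-fold), Abcc9 (5.80-fold) and Kcnk3 (4.06-fold) were lower in sample 2 on the deposited TPM, 3 of 9 genes, and none was higher. Over the 19229 genes above 0 TPM, 6.9% were called lower and 4.12% higher, and within the level range of the set 13.1% and 6.23%. With 3 genes, and technical replicates that are not independent, these counts are a description without a test. Leaving out 1 library ended the call of Kcnk3 (without technical replicate 1 of sample 1, or technical replicate 2 of sample 2) or of Abcc9 (without technical replicate 2 of sample 1), while Abcc8 stayed called each time. The call of Abcc8 rested on the lengths described above. With 1 length per gene, the means of Abcc8 were 1.38 TPM in sample 1 and 0.0186 TPM in sample 2, 2.33-fold on TPM + 1, and those of Kcnk3 were 3.45-fold apart, so neither was called. Of the 3 genes only Abcc9 (5.99-fold) was still called, against 5.12% of genes called lower and 2.98% called higher on these lengths.

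**Figure D4:**
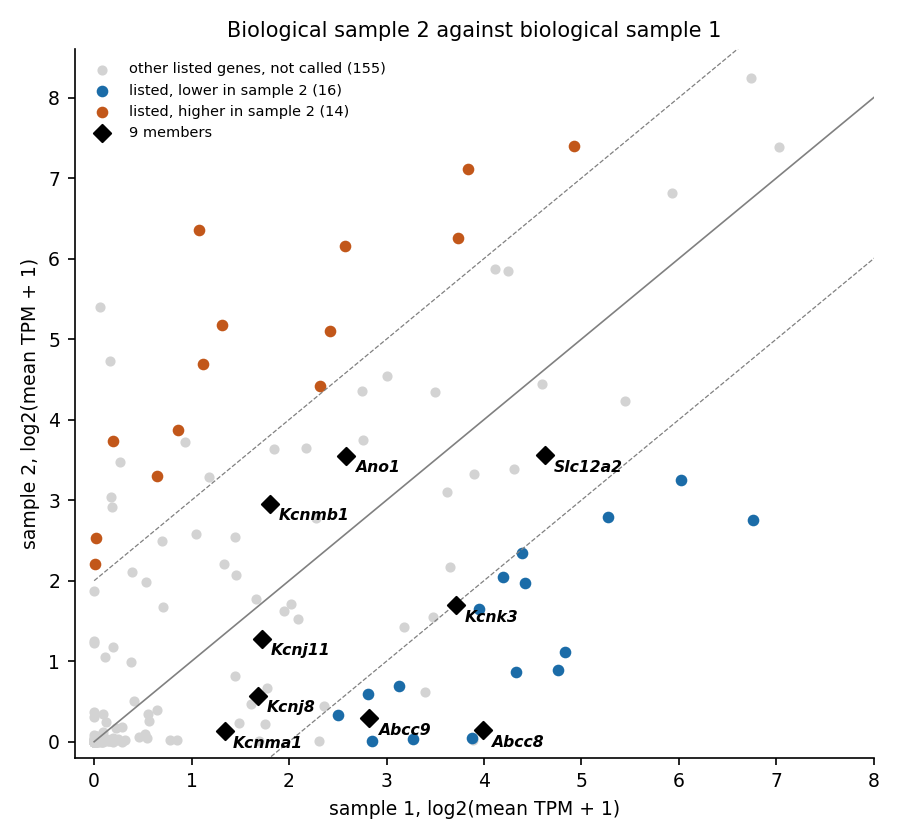
Sample 2 (vertical axis) against sample 1 (horizontal axis), both as log2(mean TPM + 1). Black diamonds are the 9 genes, blue and orange points are other channel and transporter genes called lower (16) or higher (14) in sample 2, grey points are the 155 not called, the solid line is equality and the dashed lines 4-fold. On the deposited TPM shown, Abcc8, Abcc9 and Kcnk3 lie below the lower dashed line. Fxyd1 and Fxyd2 lie beyond the axes.

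Markers of other kidney cells moved between the samples as well. Beside the calls below, 6.9% of all genes above 0 TPM were called lower in sample 2 and 4.12% higher. Of 12 markers of the thick limb, distal tubule and collecting duct, 7 were called higher in sample 2 and none lower, with summed levels of 73.2 to 298 TPM in sample 1 and 1348 to 1558 TPM in sample 2. Umod, the thick limb protein uromodulin, had a mean of 93.8 TPM in sample 1 and 729 TPM in sample 2. Of 10 proximal tubule markers, 2 were higher (Slc5a2 and Kap), with sums of 943 to 1008 TPM in sample 1 and 1763 to 13435 TPM in sample 2. Kap carried this difference, since the sums of the other 9 overlapped, at 923 and 952 TPM in sample 1 and 527 and 2295 TPM in sample 2, and 4 of them had a lower mean in sample 2. In the other direction, the 5 renin cell markers summed to 46093 to 48757 TPM in sample 1 and 23772 to 27063 TPM in sample 2, with none called. Smooth muscle markers summed to 5425 to 9392 and 3765 to 4380 TPM, with Cnn1, calponin, called lower. Pericyte and mesangial markers summed to 356 to 541 and 233 to 267 TPM, with Itga8 and Pdgfra called lower. Pdgfra stood at 20.5 and 0.113 TPM in sample 1 and at 0.0351 and 0.0433 TPM in sample 2. Its difference therefore came from 1 library of sample 1. Endothelial markers overlapped between samples, at 49.0 to 97.7 and 62.1 to 138 TPM, with only Pecam1 and Emcn at 1 TPM or more in every library. Podocyte markers summed to 20.7 to 53.2 and 13.4 to 54.9 TPM (Podxl higher in sample 2), leukocyte markers to 38.4 to 472 and 273 to 682 TPM (H2-Aa higher, Cd79a lower, Lyz2 and C1qa at 0 in every library) and fibroblast markers to 13.5 to 42.5 and 9.71 to 34.1 TPM (none called, Lum at 0 in every library). The part of these cells in the lower values of Abcc8, Abcc9 and Kcnk3 was not tested, and in sorted bulk RNA fewer cells of a type and less RNA per cell cannot be told apart.

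Few of the other potassium channel genes were present in every library. Of 13 other inward rectifiers, 2 reached 1 TPM in every library, Kcnj16 (43.8 TPM) and Kcnj1 (37.6 TPM), and 8 in none. Kcnj1, the ROMK channel of the thick limb and collecting duct, was measured at 7.77 and 2.18 TPM in sample 1 and at 71.6 and 68.9 TPM in sample 2. Kcnj1, Kcnj2 and Kcnj16 were called higher in sample 2, 3 of 13, and none was called lower. Over all genes above 0 TPM, 4.12% were called higher. Of 22 tubule markers, 9 were called higher and none lower, and a link between these channels and the markers was not tested. Kcnj15 (14.1 TPM) and Kcnj2 (4.71 TPM), the classical inward rectifier of vascular cells, followed in level.

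Of 11 other subunits of calcium-activated potassium channels, only Kcnn4, the intermediate-conductance channel, reached 1 TPM in every library. It was measured at 29.7 and 11.2 TPM in sample 1 and at 1.71 and 4.11 TPM in sample 2, and was called lower in sample 2. Kcnn2 (6.58 TPM), Kcnmb4 (1.69 TPM) and Kcnn1 (0.0535 TPM) came next, and 8 of the 11 reached 1 TPM in no library. The mean of Kcnn2 came mostly from 1 library of sample 2 at 24.5 TPM, whose technical replicate stood at 0.0179 TPM. Of 13 other tandem-pore-domain channels, the family of Kcnk3, none reached it in every library and 8 in none. The highest was Kcnk10 at 6.93 TPM, a mean that came from 1 library of sample 1 at 27.7 TPM with the others at or near 0. Kcnk5 (5.00 TPM), Kcnk1 (3.66 TPM) and Kcnk6 (0.989 TPM) followed. Kcnk1 and Kcnk6 exceeded 1 TPM in 1 library each, at 14.4 TPM in sample 2 and 3.17 TPM in sample 1. Kcnk3 was thus the highest of its family by mean, 7.18 TPM, within a spread that does not separate it from Kcnk10 or Kcnk5.

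KCNQ channels, voltage-gated channels that relax arteries when open, and their KCNE subunits made a list of 10, of which 5 reached 1 TPM in some library. Kcnq5 had a mean of 14.8 TPM, from 0.582 to 38.1 TPM in a library, at effective lengths of 468 to 584 nt. Kcne4 had a mean of 12.6 TPM, from 11.5 and 0.0314 TPM in sample 1 and 38.5 and 0.607 TPM in sample 2. Kcnq3 had a mean of 7.01 TPM. The mean of Kcnq1, 3.34 TPM, came from 1 library of sample 2 at 13.1 TPM, with the others at 0.256 TPM or less. Kcnq3 alone was present in every library, at 2.62, 2.59, 2.01 and 20.8 TPM. Its effective length ranged widely as well, and the 20.8 TPM stood on 452 reads at 276 nt, whereas 2.59 TPM stood on 745 reads at 5353 nt. Of 41 voltage-gated Kv channels and beta subunits, 34 reached 1 TPM in no library and none in every library. Kcnab1 (13.5 TPM), Kcna5 (8.31 TPM) and Kcnh2 (3.11 TPM) were among the highest, and each was called lower in sample 2. Kcnh2 stood at 12.1 and 0.357 TPM in sample 1 and at 0.0140 and 0 TPM in sample 2. Its difference therefore came from 1 library of sample 1. Kcna5, a delayed rectifier of arterial smooth muscle, was measured at 21.8 and 7.15 TPM in sample 1 and at 3.91 and 0.361 TPM in sample 2.

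Around Ano1, 28 anoctamin, bestrophin, ClC and volume-regulated chloride channel genes were examined, of which 13 reached 1 TPM in no library. Ano4, Ano6 and Clcn4 did so in every library. Ano10 (14.4 TPM), Lrrc8d (13.0 TPM) and Clcn4 (12.0 TPM) were among the highest. Ano10, Clcn4 and Lrrc8a were called lower in sample 2 and Clcn3, Bsnd and Lrrc8d higher. That was 3 of 28 each way, against 6.9% lower and 4.12% higher over genes above 0 TPM. Bsnd codes for barttin, an accessory subunit of chloride channels in the distal nephron. Of 5 CLIC genes, Clic1 (14.7 TPM) was present in every library and Clic4 (6.85 TPM) was called lower in sample 2. Clic3 (5.15 TPM) and Clic5 (0.165 TPM) were the other CLIC genes of the leading 4. Clic3 exceeded 1 TPM in 1 library only, at 20.1 TPM in sample 2.

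The list of 14 other cation-chloride cotransporters and their kinases holds the relatives and regulators of Slc12a2. Slc12a1, the NKCC2 of the thick limb, had a mean of 98.7 TPM, above that of Slc12a2, and was measured at 7.40 and 51.3 TPM in sample 1 and at 199.99 and 136 TPM in sample 2. Wnk1 (75.6 TPM) and Wnk4 (40.8 TPM), kinases that act on these cotransporters through Stk39, and Slc12a3 (37.3 TPM), the thiazide-sensitive cotransporter of the distal tubule, followed. The effective length of Wnk4 was 1695 and 1739 nt in sample 1 but 330 and 218 nt in sample 2. For Wnk1 it was 3910 and 3079 nt in sample 1 and 1316 and 802 nt in sample 2. Their place in this order thus depends on the lengths used. Slc12a1, Wnk1, Wnk3, Wnk4 and Stk39 were called higher in sample 2 and Slc12a8 and Wnk2 lower. These were 5 and 2 of 14 genes, against 4.12% higher and 6.9% lower over genes above 0 TPM. Wnk3 stood at 0 and 0.0124 TPM in sample 1 and at 7.17 and 0.0971 TPM in sample 2. Its difference therefore came from 1 library of sample 2. With 1 length per gene, Slc12a8, Wnk1, Wnk2 and Wnk3 were not called. Slc12a2 itself had a lower mean in sample 2 and was not called. Of 14 anion exchangers and bicarbonate transporters, none was present in every library. Slc26a4, the pendrin of intercalated cells, stood first at 20.7 TPM on 1 library of sample 2 at 82.7 TPM. Slc4a3 (3.03 TPM), Slc4a7 (2.62 TPM) and Slc4a1 (2.39 TPM) followed. Slc4a7 exceeded 1 TPM in 1 library only, at 9.01 TPM in sample 2. Slc4a1 was called higher in sample 2.

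The sodium-potassium pump and its FXYD regulators were the most abundant of the lists, with 7 of 14 genes present in every library. Fxyd2, the gamma subunit of the renal pump, had a mean of 6118 TPM, Fxyd1 of 227 TPM, Atp1b1 of 204 TPM and Fxyd4 of 148 TPM. Fxyd1, phospholemman, is known from heart and smooth muscle, and was present at 83.4 to 392 TPM. Atp1b2 and Fxyd5 were called lower in sample 2. Of 22 genes of calcium entry and release, 5 were present in every library (Cacna2d1, Itpr1, Atp2a2, Pln and Trpc1). Pln (30.2 TPM) and Atp2a2 (21.8 TPM), phospholamban and the calcium pump that it inhibits, Itpr1 (22.0 TPM), an inositol trisphosphate receptor, and Cacna2d1 (18.8 TPM) led the list. Cacna1c, the L-type calcium channel pore of smooth muscle, was measured at 9.40 and 2.61 TPM in sample 1 and at 0.308 and 0.707 TPM in sample 2, and was called lower in sample 2, as was Atp2a2. Cacna2d1 was called higher.

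Over all 185 listed genes beside the set, 25 (13.5%) were present in every library, against 9.74% of all symbols. Of the 185, 96 reached 1 TPM in none and 29 were at 0 in every library. Between samples, 16 (8.65%) were called lower and 14 (7.57%) higher in sample 2, against 6.9% and 4.12% of genes above 0 TPM. With 1 length per gene 20 of these 30 were still called, and those that were not included Kcnn4, Kcnh2, Lrrc8a, Slc12a8, Wnk1, Wnk2, Wnk3, Cacna1c and Cacna2d1. For the 9 genes the corresponding counts were 2, 0 and 0, and 3 and 0.

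**Figure D5:**
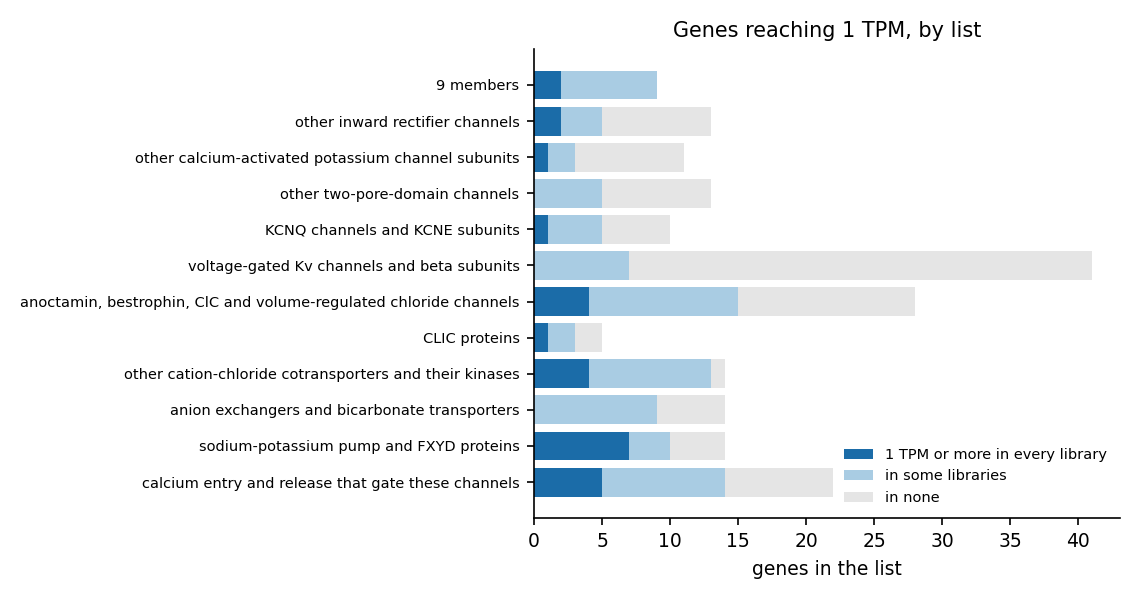
Number of genes in each list (horizontal axis) that reached 1 TPM in every library (dark), in some (light blue) or in none (grey). The 9 genes are the top bar, with 2 in every library and none in the grey class, whereas 34 of 41 Kv channel genes are grey.

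Both genes present in every library were also described by the genes whose profile was most like theirs, by the Euclidean distance between log2(TPM + 1) values centred on each gene over the 4 libraries, among genes with a mean of at least 10 TPM. Kcnmb1 was nearest to Sorbs2 (distance 0.151), which was measured at 19.3, 13.3, 67.7 and 12.4 TPM, then to Tbc1d17 (0.321) and Rtn4 (0.324). Slc12a2 was nearest to Fcgrt (0.160), measured at 55.3, 32.5, 11.8 and 33.5 TPM, then to Fosl2 (0.182) and Hsp90aa1 (0.193). With 4 libraries such likeness is common, and 153 of 4364 genes for Kcnmb1 and 159 of 4363 for Slc12a2 had a Pearson coefficient of at least 0.95. The libraries share samples, depth and composition, so this is a description only.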

How the data were processed

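Per the labels and the study's methods, the authors amplified cDNA from sorted cells (SMARTer), made Nextera XT libraries, trimmed reads with Trimmomatic 0.36 and quantified transcripts of GRCm38 with Salmon 0.7.2. Its annotation release (Ensembl) was not given in the sources used here. Deposited values were TPM per gene and library, estimated counts that the authors made with Tximport 1.2.0 (lengthScaledTPM), an effective length per gene and library, and the authors' mean TPM, which equalled the mean of 3 libraries in every row. No unit was a raw count, so no count model was fitted.

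Technical replicates were averaged within a biological sample and samples summarised as mean ± SD (n = 2). With 1 condition there were no p-values. A gene was present at 1 TPM or more, differences used a pseudocount of 1 TPM and at least 4-fold. Assigned reads were recovered as TPM times length, scaled to the library total. Of genes with up to 100 reads, 61.7 to 65.0% came out whole within 0.05 reads. Totals set the precision, and limits at 3 reads cover counting error only. Positions and lengths came from GENCODE M21 (GRCm38), which named 96.4% of symbols, and promoters from RefSeq, matched for 5 of 9 genes. Scripts used Python 3.11.15, pandas 2.3.3, numpy 2.4.6, scipy 1.17.1 and matplotlib 3.10.9, and were tested on simulated data. The simulated libraries varied less than these do and held larger changes. They checked the code only and give no error rate for the 4-fold call.

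The members and lists were chosen with earlier results of these data known. Named were all members, the 4 highest genes of each channel list, genes behind counts of 5 or fewer, the leading markers, and for members present in every library the 3 genes of nearest profile. Some listed genes that this rule would name are not reported here. Other markers, such as Cnn1, were named after their values were seen. Other minima, folds, pseudocounts, scalings and left-out libraries were tried, and the fixed length per gene and the left-out libraries for the difference between samples were added after seeing the data.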

Additional observations from a re-analysis of the deposited data

Results flagged for a closer look

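Among 20 quantities examined (each gene and each summed list) over the 4 libraries, 3 had a library whose gap to the nearest of the others exceeded Dixon's critical value of 0.829 as a share of the range. Libraries of a sample are not independent, and chance alone flags about 5% of groups of independent values. Kcnma1 stood at 2.94 TPM in technical replicate 2 of sample 1, against 0.0424 to 0.146 TPM in the others. Kcnmb1 stood at 11.9 TPM in technical replicate 1 of sample 2, against 1.66 to 2.92 TPM in the others. The summed anion exchangers and bicarbonate transporters reached 104.8 TPM in the same library, against 3.99 to 21.1 TPM, of which 82.7 TPM was Slc26a4.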

How the results depend on the processing

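The count of genes present in every library (2 of 9) ranged from 2 to 7 when samples or libraries were left out, with 7 without sample 2 and 4 without its technical replicate 1. It was 4 at a minimum of 0.1 TPM, 1 at 5 TPM, 0 at 10 TPM, and 5 when 1 library of each sample sufficed. The ratio of Kcnj8 to Kcnj11 (0.726) turned to 1.47 without technical replicate 1 of sample 1 and 1.38 without technical replicate 2 of sample 2, within a leave-one-out range of 0.137 to 1.47. Abcc9 to Abcc8 (0.422) turned to 2.07 without sample 1, with a range of 0.250 to 2.07, and to 4.40 with 1 fixed length per gene, by construction of the lengths. Abcc9 to Kcnj8 (2.33) turned to 0.456 without sample 1, with a range of 0.456 to 4.73. Kcnmb1 to Kcnma1 ranged from 1.63 to 72.0, the latter without sample 1, and was 96.8 with fixed lengths. Of the other listed genes, 12 in place of 25 were present at 5 TPM, and 27 to 44 when samples or libraries were left out. The 3 genes lower in sample 2 became 4 at 2-fold (with Slc12a2) and 1 with fixed lengths (Abcc9), and ranged from 2 to 3 without 1 library, and none was higher in any of these runs. Of 90 alternative levels of single genes 9 moved beyond 1 SD. Leaving out 1 of the 2 samples could not do so, because a mean of 2 values lies within 1 SD of both. Those settings therefore say nothing on stability. Where the samples differ widely the SD hides large moves, and Abcc8 counted as unmoved from 7.48 to 0.697 TPM with fixed lengths (SD 10.4). Of 99 ranks 44 moved. The share of genes present was 16.5% over genes above 0 TPM, and 10.8% were lower and 6.45% higher over genes at 1 TPM in any library. Unless a construction is named, the cause was not tested. No paired analysis was possible because all libraries belong to 1 condition.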
